A study of Sus scrofa with 40 samples.

Results

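The classic fasting genes described here are PCK1, PC, PDK4, CPT1A and PPARGC1A, measured on porcine microarrays in liver and in backfat. They were taken by name: every probe set whose only gene symbol in the array's annotation was one of these 5 genes, which gave 6 probe sets for these 5 of the 6765 genes so named, out of 23999 probe sets (10069 of which carry exactly 1 symbol). PCK1, PC, CPT1A and PPARGC1A have 1 probe set each and PDK4 has 2, called S1 and A1 here after the ends of their identifiers. The pigs were 20 prepubertal Yorkshire females 6 months old, 10 of low and 10 of high residual feed intake (RFI, feed eaten in excess of the amount predicted from growth and upkeep, low values meaning high feed efficiency). Within each of these lines 5 pigs ate freely (ad libitum) and 5 received 80% of their maintenance feed for 8 days. That gives 4 groups of 5 arrays in the liver and 4 in the subcutaneous fat, taken from the middle backfat layer over the tenth rib, for 40 arrays in all. Per the labels the pigs were typed for a variant of MC4R, most labels giving heterozygous pigs, and all had eaten freely before the trial. Restricted pigs were underfed and not starved, and the labels do not state how long before sampling the last meal was.

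In a fasting mammal the liver exports glucose and burns fatty acids. Pyruvate carboxylase, encoded by PC, turns pyruvate into oxaloacetate, and the cytosolic phosphoenolpyruvate carboxykinase, encoded by PCK1, turns oxaloacetate into phosphoenolpyruvate on the way to glucose. PDK4 phosphorylates and shuts off pyruvate dehydrogenase, which spares pyruvate. CPT1A is the outer-membrane carnitine palmitoyltransferase that admits long-chain fatty acids to mitochondria, and the coactivator PGC-1alpha, encoded by PPARGC1A, raises transcription of several of these genes in fasted rodent liver. In fat cells, pyruvate carboxylase also feeds the export of citrate for fatty acid synthesis, and PCK1 serves glyceroneogenesis, the making of glycerol phosphate that re-esterifies fatty acids.

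Values are linear intensities, which the authors background-corrected, summarised over probes and scaled so that the trimmed mean was 500.09 to 500.15 on every array; array medians were 127 to 191. Replicate numbers 1 and 2 differed from numbers 3 to 5 in the log2 ratio of the 3' to the 5' actin control probe sets, at 2.25 ± 0.28 (SD, n = 8) against 1.32 ± 0.194 (SD, n = 12) in liver and 2.27 ± 0.553 against 1.56 ± 0.163 in fat. The labels say nothing of what these numbers share, each set holds pigs of all 4 groups, and results are given within each set where they bear on a gene. In fat the corresponding GAPDH ratio also moved with diet, at 1.88 ± 0.521 (SD, n = 10) in restricted and 1.19 ± 0.365 in ad libitum pigs (1.14 ± 0.268 and 0.996 ± 0.219 in liver). Markers bore out the tissues: the mean log2 intensity of 16 measured hepatocyte genes (of 17 listed) was 14.6 to 15.3 in liver, and that of 6 of 8 adipocyte genes was 12.2 to 13.2 in fat. In fat the hepatocyte mean was 5.35 to 8.55 on 19 arrays and 12.5 on low RFI restricted 5, and the mean of 17 of 23 skeletal muscle genes ran from 4.85 to 12.8, highest on low RFI restricted 1. In bulk tissue, fewer cells of a type and less RNA per cell cannot be told apart.

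All 6 probe sets exceeded the 40th percentile of their own array on 20 of 20 liver arrays, and all but PPARGC1A did so on 20 of 20 fat arrays. PPARGC1A exceeded it on 0 of 20 fat arrays, so it was tested in liver alone. The tests below are limma moderated tests on log2 intensity, with Benjamini-Hochberg adjustment over all probe sets tested in a tissue (15677 in liver and 15498 in fat) and a threshold of 0.05. Diet effects are given as the log2 value of restricted pigs less that of ad libitum pigs, with both lines weighted equally. In liver the diet effect passed the test for 1 of the 6 probe sets, PC, where 0.919% of all probe sets passed. In fat it passed for 1 of the 5 tested, CPT1A, where 25.8% of all probe sets passed, so that the fat count did not exceed the share called over the whole array.

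PC, the entry enzyme of gluconeogenesis from pyruvate, rose in the liver of restricted pigs. In the order of replicate numbers 1 to 5, its liver intensity in ad libitum pigs was 1188, 1612, 3462, 1964 and 2513 in the low RFI line and 1442, 1510, 3021, 2095 and 2664 in the high RFI line. In restricted pigs it was 2994, 2616, 4537, 5413 and 6218 in the low line and 2441, 3511, 3706, 4979 and 5030 in the high line. All 10 restricted pigs lay above the ad libitum median, 7 of 10 lay above every ad libitum pig, and the diets overlapped only between pigs of different number sets. Among numbers 1 and 2 the highest ad libitum value was 1612 and the lowest restricted value 2441. Among numbers 3 to 5 these values were 3462 and 3706, so the diets were fully separated within either set. The share of all liver probe sets separated in this way was not counted, so the separation cannot be set against the whole array. Restriction raised hepatic PC by 0.96 on the log2 scale (SE 0.206, 95% interval 0.54 to 1.39, n = 10 per diet, limma adjusted p = 0.0284), which is 1.95-fold.

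Within numbers 1 and 2 the PC difference was 1.0 (SE 0.151, limma adjusted p = 0.137) and within numbers 3 to 5 it was 0.94 (SE 0.156, adjusted p = 0.0261). The sets differed in PC level itself, with an ad libitum geometric mean of 1429 in numbers 1 and 2 and of 2570 in numbers 3 to 5. With a term for the sets in the model, an alternative added after seeing the data, the difference stayed at 0.96 and its SE was 0.112 (limma adjusted p = 0.000119). The call was lost without a trend of variance on intensity (adjusted p = 0.0511), and when 1 of 4 arrays was left out: high RFI ad libitum 1 (adjusted p = 0.0607), high RFI ad libitum 4 (0.0506), high RFI restricted 4 (0.0547) or high RFI restricted 5 (0.0585). Over all single arrays left out the difference ranged from 0.87 to 1.06. With the actin and GAPDH ratios as covariates it was 0.84 (adjusted p = 0.0036).

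The rise of hepatic PC had a similar size in both lines, although neither line alone passed the adjusted threshold. It was 1.04 in low RFI pigs (SE 0.291, limma adjusted p = 0.165) and 0.89 in high RFI pigs (SE 0.291, adjusted p = 0.641). The difference between them was 0.15 with a 95% interval of -0.70 to 1.01 (limma adjusted p = 0.999), an interval wide enough to hold a clear difference either way. With the term for the sets, both line-specific effects passed, at adjusted p = 0.00495 in low and 0.0493 in high RFI pigs.

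**Figure D1:**
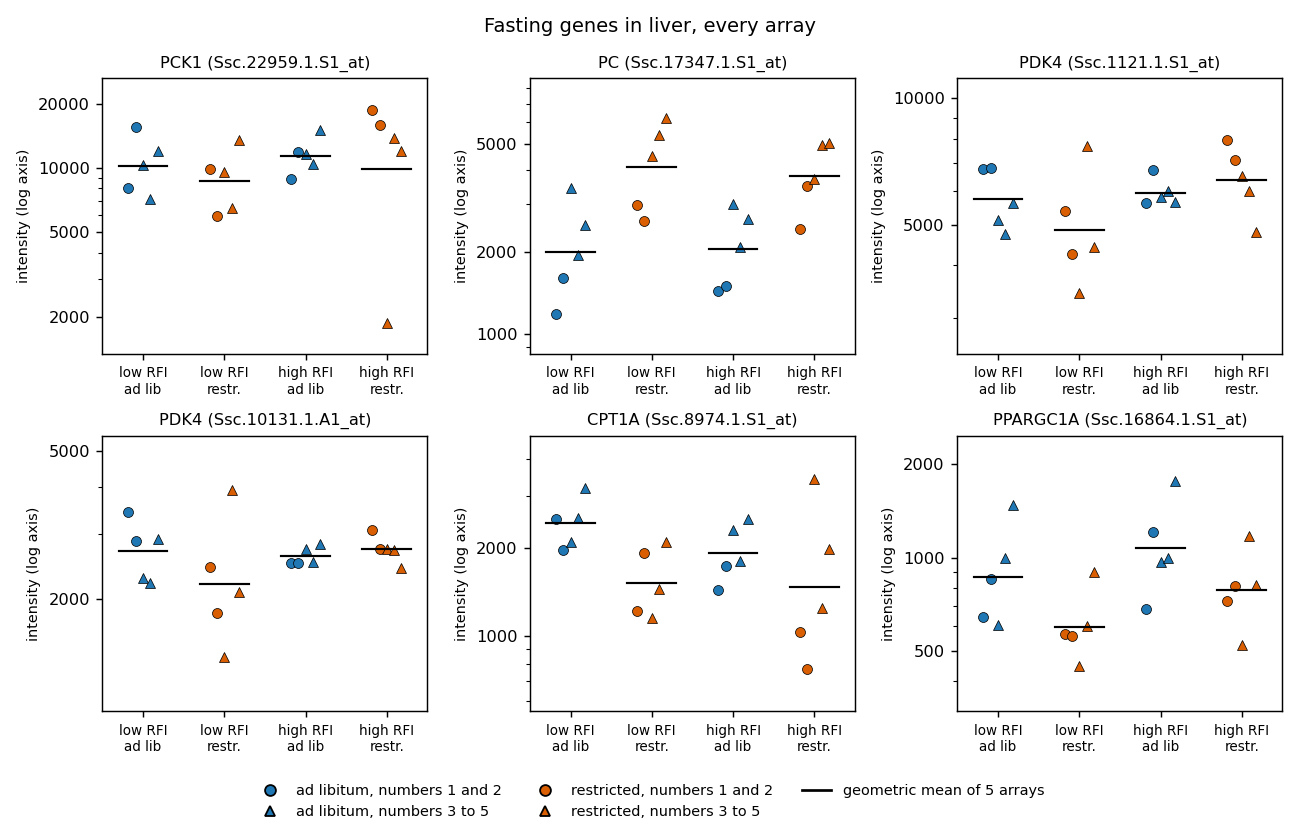
Intensity of the 6 probe sets on every liver array (log axis) by line and diet, with circles for replicate numbers 1 and 2, triangles for 3 to 5 and a bar for the geometric mean of 5 arrays. PC lies higher in both restricted groups (geometric means 4126 and 3803) than in both ad libitum groups (2009 and 2056), while PCK1 shows 1 restricted high RFI pig at 1871 far below all others.

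PCK1, the step after PC on the route to glucose, showed no diet effect that passed the test in liver. Its liver intensity in ad libitum pigs was 8070, 15610, 10316, 7101 and 11984 in the low line and 8896, 11838, 11630, 10451 and 14998 in the high line. In restricted pigs it was 9853, 5954, 9519, 6466 and 13467 in the low line and 18798, 15822, 1871, 13835 and 12021 in the high line. The diets overlapped over most of their range, 5 of 10 restricted pigs lay above the ad libitum median, and high RFI restricted 3 stood alone at 1871. The log2 difference was -0.22 (95% interval -0.85 to 0.40, limma adjusted p = 0.842), and it was 0.08 (adjusted p = 0.896) without high RFI restricted 3. Numbers 1 and 2 alone gave 0.10, and numbers 3 to 5 alone gave -0.44. Whether PC and PCK1 differed in their response was not tested.

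PDK4 was measured by 2 probe sets in the liver, neither of which passed the test for diet. On S1 the ad libitum values were 6784, 6823, 5140, 4739 and 5627 in the low line and 5613, 6738, 5805, 6005 and 5671 in the high line. The restricted values were 5393, 4264, 3441, 7681 and 4410 in the low line and 7968, 7126, 6538, 6013 and 4793 in the high line. Restricted pigs spread wider on both sides: 3 of 10 lay above every ad libitum pig and 3 of 10 below every one. The log2 difference was -0.07 (95% interval -0.33 to 0.18, limma adjusted p = 0.878), and on A1 it was -0.12 (95% interval -0.39 to 0.16, adjusted p = 0.794). On that second probe set liver values ran from 2220 to 3439 in ad libitum and from 1402 to 3927 in restricted pigs, and low RFI restricted 3 was the lowest of the 20 pigs on both probe sets. The 95% intervals of both probe sets lay between -0.39 and 0.18.

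CPT1A, the gate of mitochondrial fatty acid oxidation, had lower values in restricted liver without passing the test. Its ad libitum values were 2503, 1964, 2083, 2518 and 3203 in the low line and 1430, 1732, 2292, 1805 and 2506 in the high line. Its restricted values were 1210, 1914, 1149, 1440 and 2083 in the low line and 1030, 772, 3436, 1245 and 1970 in the high line. Of 10 restricted pigs 9 lay below the ad libitum median and 5 below every ad libitum pig, but high RFI restricted 3, the same pig that had the lowest PCK1, had the highest CPT1A of all 20. For CPT1A the diets differed by -0.53 on the log2 scale (SE 0.206, limma adjusted p = 0.267). Without high RFI restricted 3 it was -0.68 and passed (adjusted p = 0.0431), the only single array whose removal changed the call. It was -0.68 (adjusted p = 0.276) within numbers 1 and 2 and -0.43 (adjusted p = 0.568) within numbers 3 to 5.

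PPARGC1A, the coactivator, was also lower in restricted liver without passing the test. Ad libitum values were 645, 855, 606, 996 and 1483 in the low line and 683, 1210, 967, 994 and 1764 in the high line. Restricted values were 565, 557, 447, 601 and 899 in the low line and 723, 813, 524, 1172 and 818 in the high line. Of 10 restricted pigs 9 lay below the ad libitum median and 5 below every ad libitum pig, while the ranges overlapped. Hepatic PPARGC1A differed by -0.49 on the log2 scale (SE 0.186, 95% interval -0.88 to -0.11, limma adjusted p = 0.246). Its mean log2 intensity in numbers 1 and 2 was 9.68 in ad libitum and 9.36 in restricted pigs. In numbers 3 to 5 these means were 10.07 and 9.46. For CPT1A and PPARGC1A the unadjusted p was 0.0174 and 0.0148, so that 3 of 6 liver probe sets lay under 0.05 before adjustment, as did 12.4% of all probe sets, and 1 after it.

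In backfat, PC stood at higher intensity than in liver, and its diet difference did not pass the test over all numbers. Ad libitum values were 7301, 6791, 14436, 12523 and 13712 in the low line and 6681, 8702, 13175, 10788 and 14737 in the high line. Restricted values were 5523, 11249, 18220, 17358 and 19703 in the low line and 9243, 11503, 15502, 16380 and 17272 in the high line. Over all numbers the diets overlapped, and low RFI restricted 1, the array with the most skeletal muscle signal, had the lowest value of all 20. Among numbers 3 to 5 they did not overlap: ad libitum pigs reached 14737 and restricted pigs began at 15502. The share of all fat probe sets without overlap was not counted. Within these numbers 2908 of 15498 probe sets passed the limma test for diet. The log2 difference over all numbers was 0.36 (SE 0.221, limma adjusted p = 0.245).

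Within numbers 3 to 5 the PC difference in fat was 0.40 (SE 0.0892) and passed (limma adjusted p = 0.0107). Within numbers 1 and 2 it was 0.30 (SE 0.223, adjusted p = 0.488), with 3 of 4 restricted pigs above every ad libitum pig. Whether the sets differed in this was not tested. It also passed with a term for the sets (0.36, adjusted p = 0.0179) and without low RFI restricted 1 (0.52, adjusted p = 0.0419). With the actin and GAPDH ratios as covariates it was -0.02 (adjusted p = 0.958), and with the hepatocyte marker mean as a covariate 0.17 (adjusted p = 0.591). The GAPDH ratio rose with restriction in the same fat arrays, and its part in the PC values was not tested beyond this covariate fit.

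**Figure D2:**
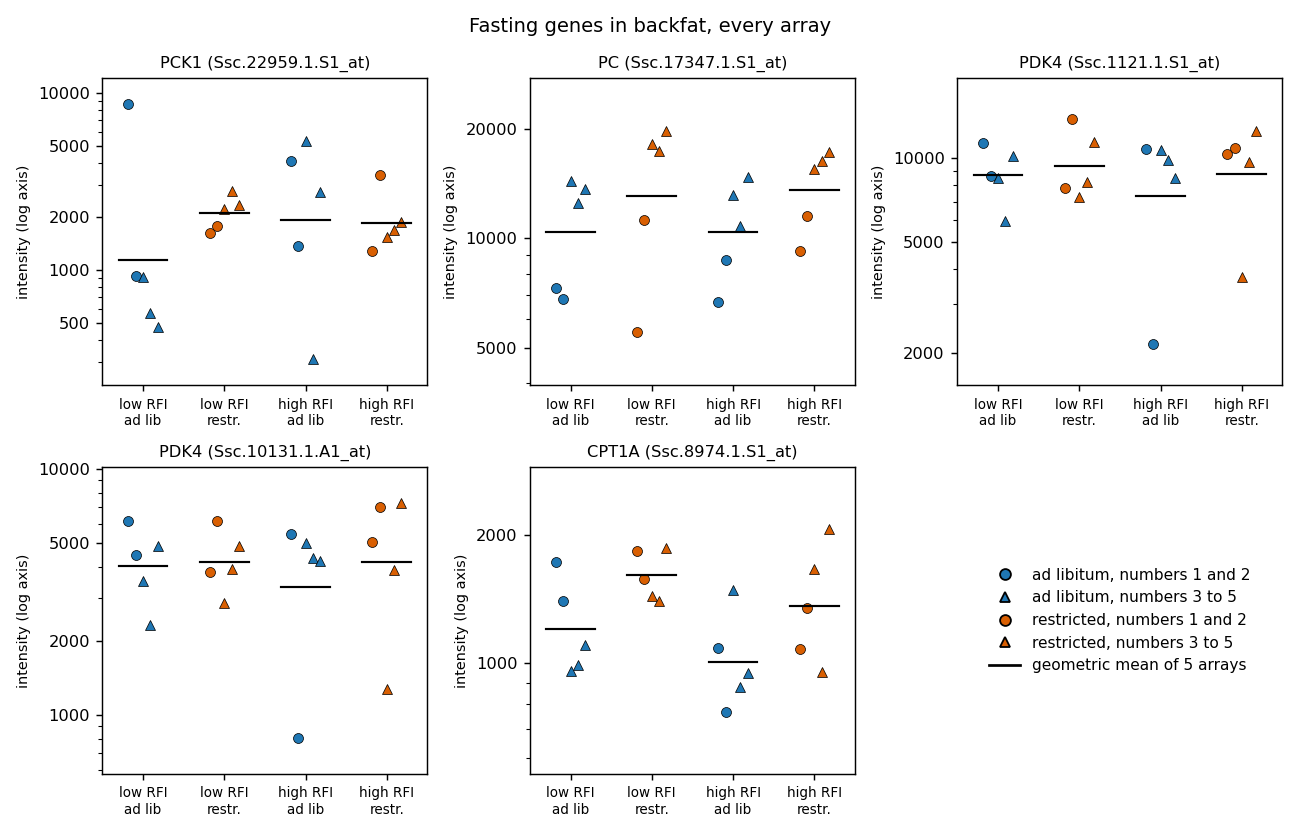
Intensity of the 5 probe sets tested in backfat on every array (log axis) by line and diet, with circles for replicate numbers 1 and 2, triangles for 3 to 5 and a bar for the geometric mean of 5 arrays. PC triangles lie above PC circles in every group, and PCK1 spreads from 312 to 8627 in ad libitum pigs against 1283 to 3420 in restricted pigs.

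CPT1A rose in restricted fat, where its liver values had been lower. Ad libitum values were 1727, 1401, 959, 993 and 1106 in the low line and 1086, 770, 1486, 881 and 947 in the high line. Restricted values were 1834, 1574, 1439, 1402 and 1869 in the low line and 1078, 1348, 1663, 955 and 2064 in the high line. Of 10 restricted pigs 9 lay above the ad libitum median and 3 above every ad libitum pig, with overlap between diets in both number sets. Restriction raised CPT1A in fat by 0.43 on the log2 scale (SE 0.149, n = 10 per diet, limma adjusted p = 0.0379), which is 1.35-fold. It was nearly equal in the lines, at 0.42 in low and 0.44 in high RFI pigs (limma adjusted p = 0.221 and 0.197), and their difference was -0.02 with a 95% interval of -0.64 to 0.60.

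The fat call for CPT1A was close to the threshold. It was lost when any of 11 of the 20 arrays was left out (adjusted p 0.0518 to 0.0758): low RFI ad libitum 3, 4 or 5, low RFI restricted 1 or 5, high RFI ad libitum 2, 4 or 5, and high RFI restricted 2, 3 or 5. The difference then stayed between 0.36 and 0.50 over all 20 omissions. Within numbers 1 and 2 it was 0.26 (limma adjusted p = 0.399) and within numbers 3 to 5 it was 0.54 (adjusted p = 0.0627). With no filter on dim probe sets the adjusted p was 0.0503. With the actin and GAPDH ratios as covariates the difference was 0.27 (adjusted p = 0.372), with the hepatocyte marker mean 0.40 (adjusted p = 0.0768), and with the muscle marker mean 0.46 (adjusted p = 0.0233).

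**Figure D3:**
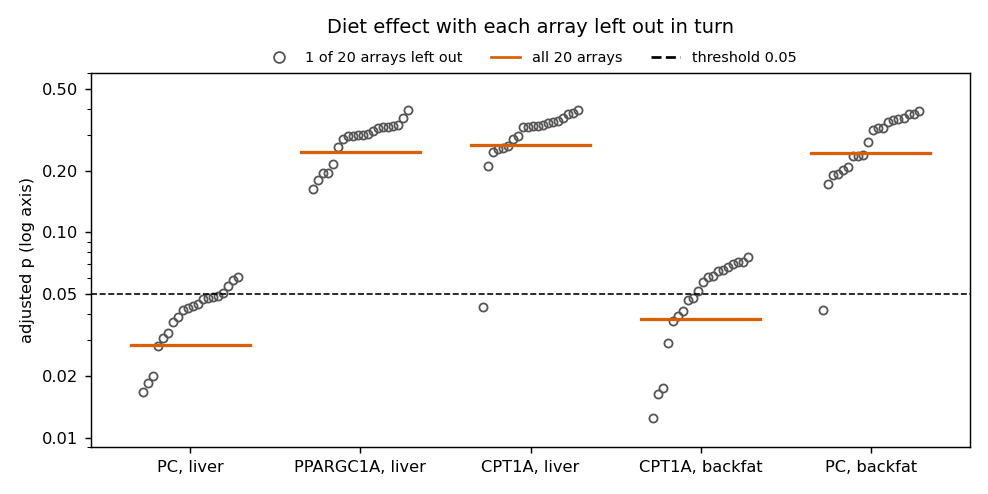
Limma adjusted p (log axis) of the diet effect with each of the 20 arrays of a tissue left out (open circles), with all arrays (orange bar) and the threshold of 0.05 (dashed line). PC in liver crosses the line for 4 omissions and CPT1A in backfat for 11, while CPT1A in liver and PC in backfat fall below it for 1 omission each.

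PCK1 in fat differed most between the diets in its spread rather than in its mean. Ad libitum values were 8627, 918, 907, 572 and 476 in the low line and 4122, 1364, 5348, 312 and 2762 in the high line. Restricted values were 1609, 1764, 2205, 2806 and 2311 in the low line and 1283, 3420, 1539, 1683 and 1869 in the high line. The highest ad libitum value was 27.7 times the lowest, against 2.67 times among restricted pigs, so that 5 ad libitum pigs lay below every restricted pig and 3 above every one. The SD of log2 intensity was 1.62 in the 10 ad libitum and 0.43 in the 10 restricted pigs; the difference in spread was not tested. Without low RFI ad libitum 1 the ad libitum ratio was 17.1 (SD 1.43), and without high RFI ad libitum 4 it was 18.1 (SD 1.49). With each restricted pig left out in turn, the restricted ratio ran from 2.19 to 2.67. The log2 difference in level was 0.41 with a 95% interval of -0.59 to 1.41 (limma adjusted p = 0.571). Numbers 1 and 2 alone gave -0.46, and numbers 3 to 5 alone gave 0.99 (limma adjusted p = 0.738 and 0.195). The difference was 0.77 without low RFI ad libitum 1 and 0.08 without high RFI ad libitum 4.

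PDK4 in fat did not pass the test for diet on either probe set. On S1 ad libitum values were 11328, 8659, 8540, 5942 and 10238 in the low line and 10813, 2152, 10684, 9875 and 8526 in the high line. Restricted values were 7816, 13839, 7249, 8259 and 11487 in the low line and 10418, 10889, 3762, 9724 and 12498 in the high line. High RFI ad libitum 2 and high RFI restricted 3 were the lowest of the 20 arrays on this probe set and also on A1, at 809 and 1278 against 2321 to 7271 elsewhere. The log2 difference was 0.19 on both, with 95% intervals of -0.36 to 0.74 and -0.50 to 0.88 (limma adjusted p = 0.65 and 0.718). Without high RFI ad libitum 2 it was -0.04 and -0.06, and within numbers 3 to 5 it was -0.10 and -0.14, so no direction is given for PDK4 in fat.

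PPARGC1A in fat had intensities of 1.38 to 105, against a 40th percentile of 91.5 to 118.9 on the same arrays. Its medians were 12.8, 42.5, 18.6 and 34 in low RFI ad libitum, low RFI restricted, high RFI ad libitum and high RFI restricted pigs. Signals this dim give no order among the groups. In liver the same probe set ran from 447 to 1764.

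**Figure D4:**
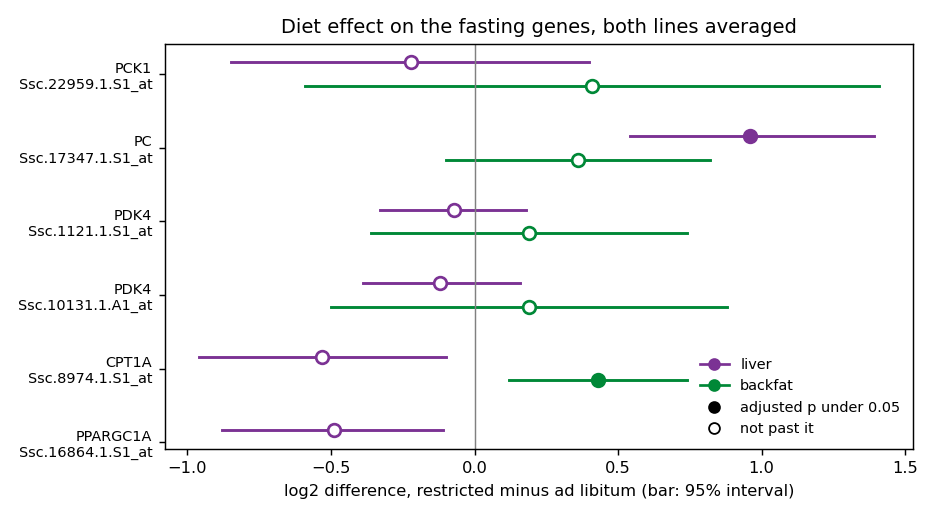
Log2 difference between restricted and ad libitum pigs for each probe set, averaged over both lines, with its 95% interval, in liver and backfat; filled points passed limma's adjusted p of 0.05. The filled points are PC in liver at 0.96 and CPT1A in backfat at 0.43, and PPARGC1A has no backfat point because it was not tested there.

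Whether the diet effect differed between the tissues was asked in a joint fit of the 40 arrays on 14001 probe sets measured in liver and fat alike, of which 10.9% passed. The fit took the arrays as independent, although 20 pigs gave both tissues, since the labels do not tie a liver to a fat array. CPT1A passed, 1 of 5: its diet effect was 0.96 higher in fat than in liver (SE 0.264, 95% interval 0.43 to 1.49, limma adjusted p = 0.0141). The difference was 0.94 within numbers 1 and 2 (adjusted p = 0.0809) and 0.97 within numbers 3 to 5 (adjusted p = 0.0754), and it passed under each of the 40 omissions of a single array (0.85 to 1.11). For PC it was -0.60 (95% interval -1.24 to 0.03, adjusted p = 0.24), and with the actin and GAPDH ratios as covariates it was -0.76 and passed (adjusted p = 0.0205). For PCK1 the difference was 0.63 (adjusted p = 0.573), and for PDK4 it was 0.26 and 0.31 (adjusted p = 0.67 and 0.681). An alternative fit took arrays of the same line, diet and number as a correlated block (correlation 0.214). It called 1 of 5 members for this difference and 5 of 5 for the level, where 2296 and 11386 of the 14001 passed.

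The levels themselves differed between liver and fat for all 5 probe sets tested, in a comparison where 78.8% of the 14001 passed. PCK1 was 5.85-fold higher in liver (log2 2.55, SE 0.298, limma adjusted p = 7.29e-10) and PC 4.16-fold higher in fat (log2 -2.06, SE 0.158, adjusted p = 8.75e-15). Every liver group mean of PCK1 lay above every fat group mean, with a gap of 2.05 between the lowest liver group (low RFI restricted, 13.08) and the highest fat group (low RFI restricted, 11.03), larger than either group's SD of 0.48 and 0.32. For PC the order was reversed, with a gap of 1.33 from the lowest fat to the highest liver group, and the next gap of 0.89 lay between the restricted and the ad libitum liver groups. Neighbouring PC groups that share tissue and diet differed by 0.00 to 0.12, less than their SD.

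CPT1A was 1.4-fold higher in liver (log2 0.48, SE 0.132, limma adjusted p = 0.00113), and its groups interleaved. Both ad libitum liver groups came first (geometric means 2418 and 1914) and both ad libitum fat groups last (1206 and 1007), with the restricted groups of both tissues between them (1367 to 1612). The low and high RFI ad libitum liver groups differed by 0.34 (log2), more than their SD of 0.28 and 0.33. The 4 restricted neighbours differed by less than their SD. PDK4 was higher in fat by 1.49-fold and 1.53-fold on its probe sets (log2 -0.58 and -0.62, adjusted p = 0.000772 and 0.0032), and no neighbouring groups in its order differed beyond their SD. Within numbers 1 and 2 the tissue differences of CPT1A (0.18, adjusted p = 0.234) and PDK4 (-0.45 and -0.68, adjusted p = 0.125 and 0.0526) did not pass. The authors' scaling sets each array to the same trimmed mean, so a level in 1 tissue relative to the other is relative to that mean.

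No difference between the RFI lines passed the test for these genes. In liver the line effect (low minus high RFI) ran from -0.35 for PPARGC1A (SE 0.186, limma adjusted p = 0.807) to 0.19 for CPT1A, and in fat from -0.28 for PCK1 to 0.25 for CPT1A (SE 0.149, adjusted p = 0.749). By limma, 0 of 6 liver and 0 of 5 fat probe sets passed, where 0.0447% and 0.0194% of all probe sets passed. At an unadjusted p under 0.05 the members' counts were also 0 and 0, against 6.53% and 7.78% of all probe sets. A difference of the diet effect between the lines was not detected either: 0 of 6 and 0 of 5 passed for the interaction by limma, with 0% of all probe sets passing in either tissue. At an unadjusted p under 0.05 there were 0 and 0 members, against 3.35% and 1.57% of all probe sets. The 95% intervals of the interaction still held values such as -0.91 to 0.20 for PDK4 (A1) in liver and -1.07 to 2.93 for PCK1 in fat. Tested within a line by limma, 0 of 6 liver probe sets passed in low RFI and 0 of 6 in high RFI pigs, where 0.134% and 0.0255% of all probe sets passed. At an unadjusted p under 0.05 there were 2 and 1, against 10.1% and 6.79% of all probe sets. In fat 0 of 5 passed in low RFI and 0 of 5 in high RFI pigs, against 9.2% and 9.02% of all probe sets. Unadjusted, there were 0 and 1, against 24.9% and 25% of all probe sets.

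The genes around these enzymes were read from 6 lists, each gene by its brightest probe set. In liver, 0.376% of all probe sets rose and 0.542% fell with restriction, and the lists held 2 of these. Of 18 other genes of gluconeogenesis and pyruvate handling tested, 1 rose and 0 fell (median -0.01, against 0.02 over all probe sets). The riser was LDHB, a lactate dehydrogenase subunit, at 0.56 (SE 0.115, limma adjusted p = 0.0237); it did not pass within either number set. Of 13 other genes induced by fasting, 1 fell and 0 rose, TSC22D3, which glucocorticoids induce, at -0.81 (SE 0.128, adjusted p = 0.00421). TSC22D3 was -0.63 within numbers 1 and 2 (limma adjusted p = 0.254) and -0.92 within numbers 3 to 5 (0.0386). None of 8 genes of pyruvate dehydrogenase and its control, 19 of beta-oxidation and ketogenesis, 21 regulators of the fasting response and 7 of glyceride supply and lipolysis passed in liver by limma, with medians of -0.08, -0.08, -0.02 and 0.08.

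In fat, where 15.1% of all probe sets rose and 10.7% fell, the partners of PC and PDK4 were mostly lower in restricted pigs, on the arrays whose GAPDH ratio was higher. Of 16 genes of gluconeogenesis and pyruvate handling 11 fell and 1 rose (median -0.59, against 0.08 over all probe sets). They include the mitochondrial malate dehydrogenase MDH2 (-1.12, SE 0.137, limma adjusted p = 1.08e-05), the enolase ENO1 (-0.82, SE 0.124) and the phosphoglycerate kinase PGK1 (-0.97, SE 0.153), enzymes that glycolysis or the citric acid cycle also use. With the actin and GAPDH ratios as covariates 8 fell and 0 rose (median -0.43), where 921 of all 15498 probe sets fell and 919 rose. Within numbers 1 and 2 alone there were 3 that fell (median -0.40), where 309 of all probe sets fell. Of 8 genes of pyruvate dehydrogenase and its control 6 fell and 0 rose (median -0.77), led by PDHB (-1.63, SE 0.154) and DLAT (-1.09, SE 0.151), subunits of the complex that PDK4 inhibits, and by MPC2 (-1.33, SE 0.132) of the mitochondrial pyruvate carrier. With those covariates 5 fell (median -0.70).

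Of 17 other genes of the carnitine shuttle, beta-oxidation and ketone metabolism 9 fell and 2 rose in fat (median -0.23). Within numbers 1 and 2 alone 3 fell and 0 rose, and within numbers 3 to 5 alone 5 fell and 2 rose. Over all 15498 probe sets 309 fell and 160 rose within numbers 1 and 2. Within numbers 3 to 5 these counts were 1251 and 1657. ECI1 fell by 1.38 (SE 0.109, limma adjusted p = 1.5e-07), ACADL by 0.88 (SE 0.0982) and ETFA by 0.79 (SE 0.101); they encode an enoyl-CoA isomerase, the long-chain acyl-CoA dehydrogenase and a subunit of the electron transfer flavoprotein. The risers, named after their values were seen, were CPT1B, the muscle form of the transferase, at 0.97 (SE 0.322), and HADHA at 0.39 (SE 0.129); with the ratios as covariates 0 rose and 6 fell, and without low RFI restricted 5, the array with the most hepatocyte signal, 0 rose and 8 fell. With the muscle marker mean as a covariate the counts stayed at 2 and 9. Of 20 regulators 2 rose and 0 fell, the glucocorticoid receptor NR3C1 (0.39, SE 0.109) and the mitochondrial transcription factor TFAM (0.24, SE 0.0801). That share of risers lay below the 15.1% of all probe sets that rose, and with the ratios as covariates 1 rose and 1 fell. Within numbers 1 and 2 and within 3 to 5, 0 of the 20 passed, where 469 and 2908 of all probe sets passed. NR3C1 was 0.38 and 0.40 in these sets, and TFAM 0.29 and 0.20.

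Of 13 other genes induced by fasting, 1 rose and 3 fell in fat (median 0.03). FKBP5, a glucocorticoid-induced gene, was higher by 0.65 (SE 0.216, limma adjusted p = 0.0303). FKBP5 was 0.51 within numbers 1 and 2 (limma adjusted p = 0.274) and 0.75 within numbers 3 to 5 (0.117). Without low RFI restricted 5, the array with the most hepatocyte signal, FKBP5 was higher by 0.54 and did not pass (adjusted p = 0.0591), nor did it with the hepatocyte marker mean as a covariate (0.56, adjusted p = 0.0788). By contrast, ASNS, the asparagine synthetase, was lower by 0.44 (limma adjusted p = 0.00579) and HMGCS1, of cholesterol synthesis, by 0.51 (adjusted p = 0.0264). HMGCS1 did not pass without low RFI restricted 5 (-0.45, adjusted p = 0.0517). Over the list, with the ratios as covariates 0 rose and 1 fell. Within numbers 1 and 2 alone 0 rose and 0 fell, and within numbers 3 to 5 alone 0 rose and 2 fell. Of 12 genes of glyceride supply and lipolysis 1 rose and 2 fell (median -0.15). The glycerol channel gene AQP3 rose by 1.11 (SE 0.265, adjusted p = 0.00415), and GPD2 (-0.65, SE 0.121) and the glycerol kinase GK (-0.75, SE 0.195) fell; with the ratios as covariates 0 rose and 4 fell. Within numbers 1 and 2 alone AQP3 was 0.50 (limma adjusted p = 0.515), and 0 of the 12 genes rose or fell, where 469 of all 15498 probe sets passed. Within numbers 3 to 5 alone 1 of the 12 rose and 3 fell, where 1657 and 1251 of all probe sets did. PCK1, which works beside these genes in fat, had the interval of -0.59 to 1.41 given above.

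How members varied together among pigs of 1 group was described by correlating log2 intensities after subtraction of each group's mean within numbers 1 and 2 and within 3 to 5 (n = 20 arrays, 16 pairs of genes over both tissues). In liver PCK1 and PPARGC1A had Pearson's r = 0.60 (exact two-sided permutation p = 0.0218, adjusted p = 0.175) and Spearman's rho = 0.59 (exact permutation p = 0.0233, adjusted p = 0.253). PCK1 and PC had r = 0.54 (exact permutation p = 0.0217, adjusted p = 0.175) and rho = 0.55 (exact permutation p = 0.0317, adjusted p = 0.253). Neither passed adjustment over the 16 pairs. Before subtraction of the group and set means r was 0.50 for PCK1 and PPARGC1A and -0.04 for PCK1 and PC. Without the 2 arrays farthest from the PCK1 median, r was 0.44 and 0.49, and it was 0.58 and 0.50 within numbers 1 and 2 and 0.60 and 0.56 within numbers 3 to 5. PCK1 and CPT1A had r = -0.51 in liver (exact permutation p = 0.352, adjusted p = 0.773). Spearman's rho was -0.21 (exact permutation p = 0.53, adjusted p = 0.802). Without high RFI restricted 3 and 4, r was 0.08. Within numbers 1 and 2, which hold neither of these arrays, r was -0.51 (n = 8). Within numbers 3 to 5 it was also -0.51 (n = 12). In fat the same pair had r = 0.49 (exact permutation p = 0.0761, adjusted p = 0.406) and rho = 0.48 (exact permutation p = 0.117, adjusted p = 0.47), r being 0.30 without 2 arrays.

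**Figure D5:**
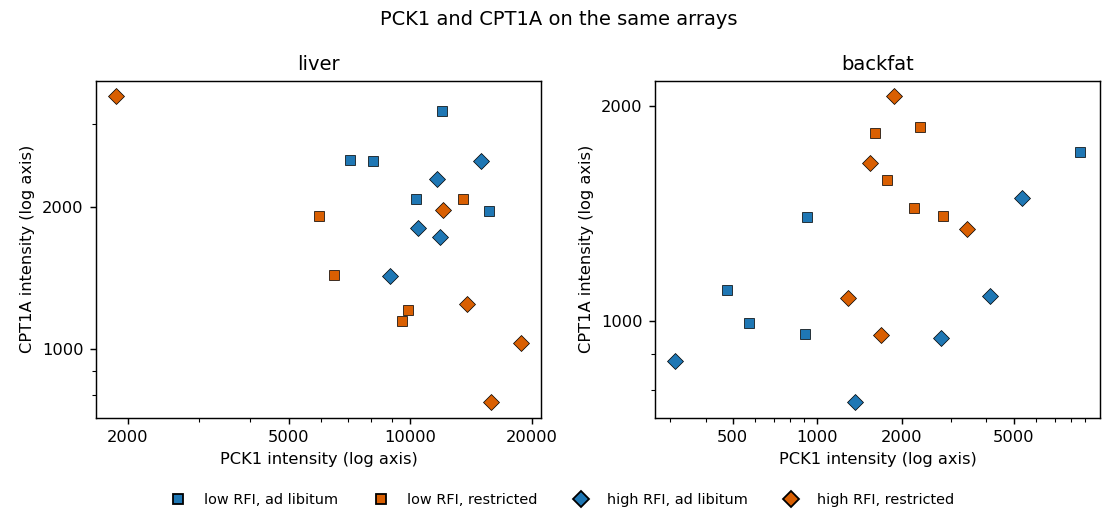
CPT1A against PCK1 intensity on the same arrays (both log axes) in liver and backfat, with squares for low RFI, diamonds for high RFI, blue for ad libitum and orange for restricted pigs. In liver 1 restricted high RFI pig with PCK1 at 1871 and CPT1A at 3436 lies apart from the other 19 arrays; in backfat the restricted pigs sit between 1283 and 3420 of PCK1 while ad libitum pigs extend to both sides.

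The genes whose pattern over the 20 arrays of a tissue was most like each member, after subtraction of the mean of each number set, were listed as a description. In liver the closest to PC were SUGT1, VTI1B and CCDC115 (each r = 0.85), to PCK1 they were PCED1A, SLC25A38 and CORO1C (each 0.81), and to PPARGC1A they were NFS1 (0.82), SDHA (0.75) and ABCB6 (0.74). CPT1A in liver was nearest to DST (0.84), UGP2 and TMEM184C (each 0.78), and PDK4 to SUOX (0.77), BCL7C (0.74) and CD80 (0.73). Without subtraction of the set means, r was 0.40 for SUGT1 and 0.53 for VTI1B with PC, 0.40 for SUOX with PDK4 and 0.50 for UGP2 with CPT1A. In fat PCK1 was nearest to GPRC5A (0.81), ANGPTL4 (0.75) and CH25H (0.74), and PDK4 to ARMC1 (0.75), ANGPTL4 (0.75, on another of its probe sets) and PCDH7 (0.73). ANGPTL4, an inhibitor of lipoprotein lipase that fasting induces, was thus among the 3 nearest genes of both, and its own diet difference in fat was 0.35 and 0.49 on those probe sets (limma adjusted p = 0.4 and 0.225). PC in fat was nearest to GID8 (0.87), GTF2F2 and AIMP1 (each 0.86; 0.51, 0.61 and 0.48 without the subtraction), and CPT1A to ZZZ3 (0.85), TPR and LOC641352 (each 0.82). These r were picked as the highest over all named genes tested, and the arrays share diet groups, scaling and, in fat, the change of the GAPDH ratio with diet.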

How the data were processed

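Liver and backfat RNA of 20 pigs was hybridised to 40 single-colour Affymetrix porcine arrays. The authors deposited 1 linear intensity for each probe set and array; the submitters' processing notes name affy and MAS5, with no version or role, so the algorithm was not checked. Of 24123 probe sets, 124 controls were left out. Intensities were log2-transformed without offset, and a tissue's test kept probe sets that exceeded an array's 40th percentile on 5 or more of its 20 arrays. Group means were fitted with limma 3.58.1 in R 4.3.3 (eBayes with an intensity trend, Benjamini-Hochberg over all probe sets tested, threshold 0.05). This fit was checked on arrays simulated with known diet changes: a log2 change of 1 was called for 60 of 73 probe sets in liver and 57 of 65 in fat, and a change of 0.5 for 18 of 66 and 33 of 67. The simulated noise was independent and normal, without a difference between number sets. It gave 143 calls in liver and 165 in fat, 5 and 8 of them false, against 144 and 3999 in the data. The number of changed probe sets was set in advance, so the near match of calls in liver is no check of the fit. The recovery in simulated arrays therefore need not hold for the real arrays of either tissue. Tables and correlations used Python 3.11.15, pandas 2.3.3, numpy 2.4.6 and scipy 1.17.1, and plots matplotlib 3.10.9. Precision is limited by the number of arrays.

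Replicates are separate samples per the labels; p-values measure the spread among these pigs, and labels do not tie a liver to a fat array. The members, lists, rules and tests were chosen with earlier results of these data known. Named genes are all members, the 3 genes with the smallest p among those past the threshold in each list and tissue, and the 3 genes most like each member. CPT1B and HADHA in fat were named outside this rule, after their values were seen. Of 10069 probe sets with 1 symbol, 9961 matched a gene of the RefSeq pig table (Sscrofa11.1). Alternatives were quantile normalization, no filter, a 60th percentile filter, an offset, no trend, the replicate number as a block, each number set alone, each array left out, and control ratios or marker means as covariates; a term for the number sets was added after seeing the data. Probe-level data and promoter sequences were not used here.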

Additional observations from a re-analysis of the deposited data

Results flagged for a closer look

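Of 44 combinations of a probe set with a group of 5 arrays, 5 had 1 array set apart from the other 4 by Dixon's criterion. By chance about 1 in 20 would be so. The combinations share arrays and count both PDK4 probe sets, so they are not independent. PCK1 in liver was 10.87 (log2; intensity 1871) in high RFI restricted 3, against 12021 to 18798 in the other 4 pigs of that group. PCK1 in fat was 13.07 (8627) in low RFI ad libitum 1, against 476 to 918 in the others. PDK4 in fat was low in high RFI ad libitum 2 on both probe sets, at 9.66 on probe set A1 (809 against 4224 to 5462) and 11.07 on probe set S1 (2152 against 8526 to 10813). In high RFI restricted 3 it was 11.88 on probe set S1 (3762 against 9724 to 12498).

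The diet effect on CPT1A differed between the tissues by 0.96 (log2, fat minus liver; SE 0.264, limma adjusted p = 0.0141), with 9 of 10 restricted pigs below the ad libitum median in liver and 9 of 10 above it in fat.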

How the results depend on the processing

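Reported counts were 1 of 6 probe sets for diet in liver (PC), 1 of 5 for diet in fat (CPT1A), 1 of 5 for the tissue difference of the diet effect and 5 of 5 for the tissue level. In liver the count was 0 without an intensity trend and within numbers 1 and 2, and 2 with the replicate block; each array left out gave 0 to 2. In fat it was 0 with no filter, within numbers 1 and 2 and with the control ratios or hepatocyte markers as covariates, 2 with the replicate block or the term for the sets, and 0 to 1 with each array left out. For diet in low RFI liver it was 1 with the replicate block, the ratios or the term for the sets, and in high RFI liver 1 with that term, in place of 0. For the tissue difference of the diet effect it was 0 within either number set and 2 with the ratios, and for the tissue level 2 within numbers 1 and 2. Line and interaction counts stayed at 0 under every alternative.

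Among diet effects averaged over the lines and tissue differences, signs turned for PCK1 in liver (0.10 within numbers 1 and 2, 0.08 without high RFI restricted 3, and -0.34 to 0.08 over all single arrays left out), PCK1 in fat (-0.46 within numbers 1 and 2) and its tissue difference there (-0.56), PC in fat (-0.02 with the ratios), and PDK4 in fat (-0.14 on A1 and -0.10 on S1 within numbers 3 to 5, -0.06 and -0.04 without high RFI ad libitum 2, with ranges up to 0.40 and 0.34 over single arrays left out, -0.00 with the ratios on S1) and its tissue difference within numbers 3 to 5 (-0.07 and -0.04). Of 830 values of members in these comparisons under alternatives, 784 kept sign and side of the threshold, 27 lost a call, 7 gained one and 12 turned. Of 682 values of diet effects within 1 line, 27 turned, 4 gained a call (all PC in liver) and 0 lost one; examples are PCK1 in low RFI fat (0.88 to -0.74) and high RFI liver (-0.21 to 0.75), both within numbers 1 and 2, PC in high RFI fat with the ratios (0.39 to -0.10), and PDK4 A1 in high RFI fat within numbers 3 to 5 (0.33 to -0.45).

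Calls over all probe sets for diet in liver, 144, were 74 without a trend, 328 with the replicate block, 384 with the ratios, 272 with the term for the sets, and 0 and 44 within numbers 1 and 2 and 3 to 5. In fat, 3999 became 469 within numbers 1 and 2 and 1840 with the ratios. As a check of pairing, same-numbered arrays deviated together with r over 0.1 in 26 of 30 pairs in liver and 23 of 30 in fat (medians 0.18 and 0.20, against -0.08 and -0.05 for other pairs), and 12 and 13 of 20 arrays correlated best with an array of their own number. Same-numbered arrays were thus more alike, but not every pair passed 0.1 and the labels give the numbers no meaning, so the block is an alternative only. With the replicate block PC also passed in fat (adjusted p = 0.00918) and low RFI liver (0.00988), and PPARGC1A in liver (0.041). Signal over background limits PPARGC1A in fat.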
